A study of Mus musculus with 5 samples.

Results

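The Hox genes encode homeodomain transcription factors and lie in the mouse in 4 clusters, Hoxa on chromosome 6, Hoxb on chromosome 11, Hoxc on chromosome 15 and Hoxd on chromosome 2. Their members were taken here as every gene with a Hox symbol of cluster a to d and a paralogue number from 1 to 13, measured by a probe set that the array's annotation gives to 1 gene symbol only. The rule found 31 genes of 12393 on the array, 9 in Hoxa, 9 in Hoxb, 6 in Hoxc and 7 in Hoxd. The gene table lists 39 Hox genes, and the other 8 are not analysed here as genes of their own. Where a gene had several such probe sets, as 5 of the 31 did, the one with the brightest average on the log2(signal + 16) scale stands for it, signal being the deposited linear MAS5 intensity. Of the 31 genes, 18 were bright enough to test and 13 were dim, that is, under the 40th percentile of all genes, a mean log2 value that corresponds to a signal of 30.0.

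RNA came from whole C57BL6J mouse embryos at gestation day 9.5, hybridised to Affymetrix Mouse Genome 430A arrays after 2 rounds of amplification. The groups are 2 arrays of embryos labelled Folr1-/-, a genotype of the folate receptor gene Folr1, and 3 arrays of Folr1+/+ embryos. The Folr1-/- embryos had Folr1+/- parents, and their dams were given extra folate in the diet for 2 weeks before mating and through pregnancy. The labels name no diet for the Folr1+/+ litters beyond the standard chow of the colony, so an effect of the diet and one of the genotype cannot be told apart. The labels describe the arrays of a group as biological replicates without saying whether 1 embryo or a pool was used, and p-values measure the spread between these arrays.

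Within a cluster the genes are ordered by paralogue number, and genes of the same number in different clusters, called paralogues, descend from 1 ancestral gene. Low-numbered genes at the 3' end of a cluster are switched on early and are expressed up to the hindbrain, while high-numbered genes at the 5' end follow later and are confined to the trunk, tail and limbs. Retinoic acid and the caudal (Cdx) proteins act on many of these genes, and Pbx and Meis proteins bind DNA together with Hox proteins.

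The probe set of Folr1 had signals of 50.2 and 41.8 in Folr1-/- arrays and of 57.0, 50.01 and 40.2 in Folr1+/+ arrays, with a log2 fold change of -0.07 ± 0.20 (SE, limma adjusted p = 0.858). The labels do not say which part of the gene was removed, so this value does not check the genotype, and directions rest on the labels, which name genotyping by PCR. Decidua, chorion and amnion were dissected away, and the yolk sac is not mentioned. Markers of other tissues differed between the same arrays. All 21 tested genes of visceral endoderm and yolk sac rose, and the sum of their signals was 20685 to 20993 in Folr1-/- arrays against 3574 to 4777 in Folr1+/+ arrays. Of 10 tested neural progenitor genes 9 fell (sums of 14 genes of 537 to 610 against 1597 to 1740) as did 5 of 6 somite genes (sums of 13 genes of 312 to 384 against 790 to 1023). Primitive red cell genes fell in 6 of 8 tested members (sums of 11 genes of 280 to 771 against 5483 to 6412). Trophoblast and decidua genes rose in 3 of 3 (sums of 5 genes of 423 to 532 against 172 to 207). Forebrain and midbrain genes fell in 2 of 4 and rose in 0 (sums of 8 genes of 121 to 153 against 308 to 379). Lateral plate and limb genes went both ways. Of 3 tested, 1 fell and 1 rose (sums of 9 genes of 446 to 563 against 413 to 444). Past the threshold given below, 6.79% of all genes tested were lower and 8.19% higher. Some markers that fell, such as Zic1, Hes5, Pax6, Klf1 and Slc4a1, had mean Folr1-/- signals below the filter at 30.0. They entered the test only through their Folr1+/+ signals. Some that rose, such as Foxa3, Cited1 and Prl8a2, entered only through their Folr1-/- signals. No marker was at a signal of 0. The Actb 3'/5' ratio, a measure of RNA shortening, was 30.5 and 22.8 in Folr1-/- arrays and 21.1 to 39.5 in Folr1+/+ arrays. The X-linked Xist was higher, with signals of 419 and 770 in Folr1-/- arrays against 25.0 to 35.7 in Folr1+/+ arrays. The Y-linked Eif2s3y was lower, with 104 and 3.13 against 300 to 372. These genes mark the sex of embryos, so an effect of sex and one of the genotype cannot be told apart. The part of the marker and sex differences in the Hox results was not tested, and in whole embryos fewer cells of a type and less RNA per cell cannot be told apart.

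Hox genes moved in both directions in Folr1-/- embryos, and both directions occurred within the Hoxa cluster and within paralogue group 9. Of the 18 tested genes, 5 fell (Hoxa3, Hoxa9, Hoxb3, Hoxb4 and Hoxc4), 3 rose (Hoxa10, Hoxd1 and Hoxd9) and 10 did not pass the threshold, a limma adjusted p of 0.05 with Benjamini-Hochberg adjustment over all 7436 genes tested. Among all genes tested, 15.0% passed, 6.79% lower and 8.19% higher. The median log2 fold change, Folr1-/- minus Folr1+/+ on the log2(signal + 16) scale, was -0.29 over the 18 Hox genes and -0.02 over all genes tested. Hoxb3 and Hoxb9 entered the test only through their Folr1+/+ signals and Hoxa10 only through its Folr1-/- signals. In the other group their mean signals lay below the filter at 30.0. With these, the groups did not overlap in 12 of the 18 Hox genes, 7 lower and 5 higher, against 46.7% of all genes tested. Without Folr1-/- replicate 1 the only call among them was Hoxc4 (4.94% of all genes passed), and without Folr1-/- replicate 2 the calls were Hoxa9 and Hoxc4 (8.89%). In both fits the Folr1-/- arm is 1 array, which is assumed to vary like the Folr1+/+ arrays. The fold change of Hoxd9 was 1.07 and 0.98 in these fits against 1.02 with all arrays, and that of Hoxa3 was -0.97 and -0.87 against -0.92. Without Folr1+/+ replicate 3 the calls were Hoxa3, Hoxc4 and Hoxd9, and in this fit 8.59% of all genes passed. No tested Hox gene changed sign under any of the 15 alternative settings in which it was tested.

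**Figure D1:**
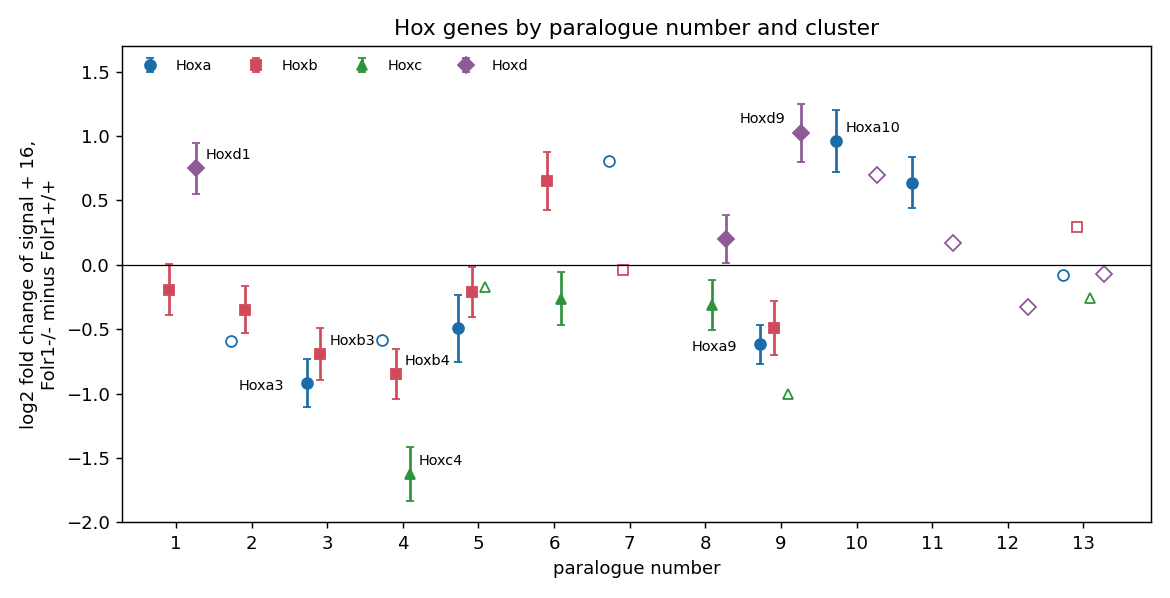
Log2 fold change of each of the 31 Hox genes, Folr1-/- minus Folr1+/+ on the log2(signal + 16) scale (vertical axis), against paralogue number (horizontal axis), with symbols by cluster. Filled symbols with bars (SE) are the 18 tested genes, open symbols are the 13 dim genes with values from the fit without a filter, and names mark the genes past the threshold; paralogue groups 3 and 4 lie below 0 and Hoxd1, Hoxd9 and Hoxa10 above it.

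Paralogue group 4, which helps to pattern the caudal hindbrain and the neck, held the largest change of the family. Hoxc4 had signals of 65.4 and 116 in Folr1-/- arrays and of 299, 345 and 270 in Folr1+/+ arrays. Its mean was 90.5 ± 35.5 (SD, n = 2) in Folr1-/- and 305 ± 37.9 (SD, n = 3) in Folr1+/+ arrays, a log2 fold change of -1.63 ± 0.21 (SE, adjusted p = 0.00041). Every Folr1-/- array lay below every Folr1+/+ array, and Folr1-/- replicate 2 lay nearer to the Folr1+/+ arrays than replicate 1. Hoxc4 was the 1 Hox gene that passed under all 15 alternatives, with fold changes of -1.97 to -1.27. Hoxb4, known in the mouse for its part in the closure of the sternum and in the axis vertebra, had signals of 33.7 and 32.4 in Folr1-/- arrays and of 71.3, 62.9 and 83.6 in Folr1+/+ arrays. It fell by 0.85 on the log2 scale (SE 0.20, adjusted p = 0.013), and the groups did not overlap. Its other, dimmer probe set had signals of 20.2 and 11.7 against 23.9, 6.08 and 18.3, a log2 difference of 0.02 within overlapping groups, and with the mean of both probe sets the call was lost (-0.41, adjusted p = 0.22). The dim Hoxa4 had signals of 1.94 and 2.01 against 12.6, 9.0 and 11.2, which do not overlap, while its other probe set had 6.44 and 3.31 against 4.92, 7.21 and 3.73, which do.

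The sequences before the starts of these genes are shown for a pair of paralogues that fell together, Hoxb4 and Hoxc4, and for a pair from one cluster that rose, Hoxd1 and Hoxd9. Each is the 250 bases upstream of a RefSeq start, which for Hoxb4, Hoxd1 and Hoxd9 is the start of the gene's extent and for Hoxc4 an internal one, so that its window lies within the gene, read 5' to 3' on the gene's strand, and capitals mark a match to 1 of 4 short motifs searched on both strands. The motifs were the nuclear receptor half-site AGGTCA, which retinoic acid receptors can bind, the TATA box core TATAAA, the caudal core TTTATG and the homeodomain core TAATTA. Hoxb4 and Hoxc4 each held the half-site once, in its reverse form TGACCT, and the Hoxd1 and Hoxd9 windows held none of the 4 motifs. The windows of Hoxa3 and Hoxa9, which also fell, held none of the 4 either, and of the windows of Hoxa10, which rose, 1 held the TATA box core, in its reverse form TTTATA.
Hoxb4, GRCm38.p6 chr11:96318017-96318266, plus strand: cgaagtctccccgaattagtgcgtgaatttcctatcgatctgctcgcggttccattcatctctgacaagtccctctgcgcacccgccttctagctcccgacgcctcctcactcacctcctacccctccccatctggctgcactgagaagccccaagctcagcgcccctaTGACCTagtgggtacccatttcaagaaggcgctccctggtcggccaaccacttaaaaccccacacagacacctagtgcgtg
Hoxc4, GRCm38.p6 chr15:103034145-103034394, plus strand: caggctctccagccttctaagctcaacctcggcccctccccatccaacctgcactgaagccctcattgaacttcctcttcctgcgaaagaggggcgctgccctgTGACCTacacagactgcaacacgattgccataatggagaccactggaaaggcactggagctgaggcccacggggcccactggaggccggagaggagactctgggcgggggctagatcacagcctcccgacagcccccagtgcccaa
Hoxd1, GRCm38.p6 chr2:74762730-74762979, plus strand: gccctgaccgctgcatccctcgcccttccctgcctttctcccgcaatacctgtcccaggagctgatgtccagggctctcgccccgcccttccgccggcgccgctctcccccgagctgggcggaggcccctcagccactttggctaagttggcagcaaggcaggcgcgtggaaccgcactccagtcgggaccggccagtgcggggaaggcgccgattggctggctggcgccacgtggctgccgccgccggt
Hoxd9, GRCm38.p6 chr2:74697513-74697762, plus strand: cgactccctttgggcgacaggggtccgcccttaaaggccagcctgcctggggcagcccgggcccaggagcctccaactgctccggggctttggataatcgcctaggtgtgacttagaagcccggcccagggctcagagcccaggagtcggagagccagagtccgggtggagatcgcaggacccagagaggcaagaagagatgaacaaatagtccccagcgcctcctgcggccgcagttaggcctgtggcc
RefSeq gave 20 such windows for 18 of the 31 Hox genes. The half-site was in 4 of these 20 windows (those of Hoxb4, Hoxc4, Hoxd8 and Hoxd10) and in 14.0% of the 32851 windows of all genes. TATAAA was in 2 of 20 against 12.4%, TTTATG in 2 of 20 against 10.8% and TAATTA in 2 of 20 against 4.84%. Both windows with TAATTA belong to the dim gene Hoxd11. In a Hoxd11 window the caudal and homeodomain matches adjoin, and in the Hoxd13 window the TATA core matches on both strands overlap. A match is a description of letters, and whether it bears on a gene's signal was not tested. Of the other Hox genes with a half-site, Hoxd8 did not pass the threshold and Hoxd10 was too dim to test.

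Paralogue group 3, which acts in the pharyngeal arches and the caudal hindbrain, fell in both members on the array. Hoxa3, needed in the mouse for the thymus and parathyroid, had signals of 37.7 and 34.2 in Folr1-/- arrays and of 79.5, 76.0 and 92.0 in Folr1+/+ arrays. The fold change was -0.92 ± 0.19 (SE, adjusted p = 0.0069), with no overlap. The suffix of this probe set marks that it can match several transcripts. A dimmer probe set of Hoxa3 had 18.6 and 28.1 against 42.8, 9.81 and 46.3, where Folr1+/+ replicate 2 lay below both Folr1-/- arrays, and with the mean of both probe sets the call was lost (-0.57, adjusted p = 0.14). Hoxb3 had signals of 18.3 and 21.1 in Folr1-/- arrays, against 41.9, 44.8 and 38.5 in Folr1+/+ arrays (-0.69 ± 0.20, adjusted p = 0.038). Its mean lay just above the filter, at the 40.9th percentile, with its Folr1-/- signals below 30.0 and its Folr1+/+ signals above. Hoxb3 thus entered the test only through its Folr1+/+ signals, and its call was kept in 5 of the 11 alternatives in which it was tested. In the gene table Hoxb3 overlaps Hoxb4, and Hoxa3 overlaps Hoxa4, Hoxa5 and Hoxa6, so signals of such neighbours may not be independent.

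Paralogue groups 1 and 2 are the most anterior. Hoxd1, which in the mouse shapes sensory neuron circuits, rose, with signals of 162 and 145 in Folr1-/- arrays and of 100.5, 64.6 and 92.5 in Folr1+/+ arrays (0.75 ± 0.20, adjusted p = 0.026). Its groups did not overlap, and its call was lost without Folr1+/+ replicate 2 too (0.59, adjusted p = 0.053). Hoxb1, which gives a hindbrain segment its identity, had signals of 140 and 159 against 183, 134 and 211, with a fold change of -0.20 ± 0.20 and overlapping groups. Hoxb2, a target of Egr2 in the hindbrain, had 107 and 97.7 against 132, 158 and 116 (-0.35 ± 0.18, adjusted p = 0.22), lower without overlap but short of the threshold. Hoxa2, which sets the identity of the hyoid arch, was dim, with 15.5 and 9.02 against 20.9, 20.1 and 40.7. Hoxb1 and Hoxd1 thus had fold changes of opposite sign, of which that of Hoxd1 passed.

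**Figure D2:**
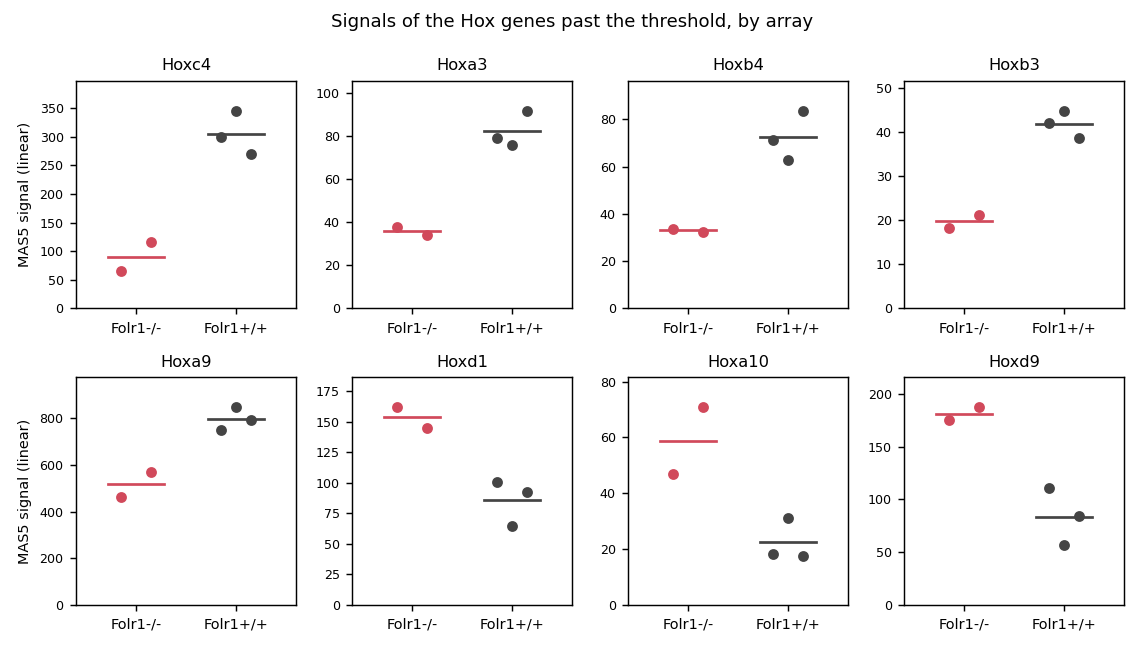
MAS5 signal on a linear scale (vertical axes, each from 0) of the 8 Hox genes past the threshold, in 2 Folr1-/- arrays (left, red) and 3 Folr1+/+ arrays (right, grey), ordered by fold change. Points are arrays and lines are group means; the Folr1-/- points lie below all Folr1+/+ points in Hoxc4, Hoxa3, Hoxb4, Hoxb3 and Hoxa9 and above them in Hoxd1, Hoxa10 and Hoxd9.

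The central paralogue groups 5 to 8, expressed in the neck and thorax, gave 0 calls among 6 tested genes by limma, and 1 of them, Hoxb6, had an unadjusted p under 0.05. At that level 1116 of all 7436 genes tested were lower and 1114 higher. Hoxb6 had signals of 107 and 73.8 in Folr1-/- arrays and of 67.8, 45.0 and 42.9 in Folr1+/+ arrays (0.65 ± 0.23, adjusted p = 0.074), and it passed without Folr1+/+ replicate 1 (0.81, adjusted p = 0.036) and with array weights (0.69, adjusted p = 0.042). Hoxa5, needed in the mouse for the airways, differed between the Folr1-/- arrays, with 12.6 and 33.1 against 32.6, 32.4 and 46.4 (-0.49 ± 0.26). Hoxc8, a thoracic gene, had 105 and 132 against 173, 122 and 161 (-0.31 ± 0.19), and Hoxd8 had 117 and 150 against 120, 121 and 98.9 (0.20 ± 0.18). Fold changes of Hoxb5 and Hoxc6 were -0.21 ± 0.19 and -0.26 ± 0.20. In these last 4 genes the groups overlapped, and a limma p above the threshold on 5 arrays does not show that their levels were alike. The probe set used for Hoxc6 can share sequence with other genes, as its suffix marks. Of its other probe sets, 1 had signals of 4.68 and 0.722 against 10.4, 39.7 and 23.8, lower without overlap (-1.06), and the other a difference of 0.01. With the mean of all 3 the fold change of Hoxc6 was -0.44 (adjusted p = 0.19).

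Paralogue group 9, active in the thoracic and lumbar trunk, went both ways. Hoxa9 had signals of 463 and 571 in Folr1-/- arrays and of 752, 849 and 793 in Folr1+/+ arrays, and fell by 0.62 on the log2 scale (SE 0.15, adjusted p = 0.018). A dimmer probe set of Hoxa9 had 35.9 and 37.0 against 55.7, 44.2 and 38.3, lower as well, and with the mean of both the call was lost (-0.43, adjusted p = 0.073). Hoxd9 rose, with 175 and 188 in Folr1-/- arrays and 111, 56.5 and 83.9 in Folr1+/+ arrays (1.02 ± 0.23, adjusted p = 0.011). Signals of Hoxb9 were 23.3 and 23.8 against 47.5, 32.3 and 40.1 (-0.49 ± 0.21, adjusted p = 0.14), lower without overlap. Its Folr1-/- signals lay below the filter at 30.0, so Hoxb9 entered the test only through its Folr1+/+ signals. Hoxc9, which in the spinal cord of the mouse sets the identity of thoracic motor neurons, was dim, with 9.21 and 6.37 in Folr1-/- arrays against 27.7, 29.1 and 38.9 in Folr1+/+ arrays. In the fit with no filter it passed (-1.01, adjusted p = 0.031), as did 6.03% of the 12393 genes in that fit, 2.51% lower and 3.52% higher. The Hox genes past the threshold in that fit were Hoxa3, Hoxa9, Hoxc4, Hoxc9 and Hoxd9.

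Paralogue groups 10 and 11 pattern the lumbosacral axis, the limbs and the urogenital tract, and 1 of their 2 tested genes rose. Hoxa10 had 46.7 and 70.9 in Folr1-/- arrays and 18.3, 31.3 and 17.6 in Folr1+/+ arrays, and rose by 0.96 ± 0.24 (SE, adjusted p = 0.019). Its mean Folr1+/+ signal of 22.4 lay below the filter at 30.0, so Hoxa10 entered the test only through its Folr1-/- signals. Without Folr1-/- replicate 2 it was too dim to test. Hoxa11, next to Hoxa10 in the cluster, had 80.3 and 71.5 against 35.3, 50.4 and 44.2 (0.64 ± 0.20), without overlap. Its adjusted p of 0.051 missed the threshold, and it passed in 6 of 14 alternatives. Hoxd10 lay just below the filter on dim genes, at the 39.6th percentile, with 40.8 and 48.0 against 20.6, 18.6 and 24.9. In the fit with no filter its fold change was 0.69 (adjusted p = 0.097). With the mean of probe sets it passed, but it has only 1 probe set, so its values were unchanged and only the filter moved. Its Folr1+/+ signals lay below 30.0 and its Folr1-/- signals above, so it entered that test only through its Folr1-/- signals. Hoxd11 was dim and its groups overlapped, with 5.69 and 5.88 against 3.82, 5.93 and 0.775.

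**Figure D3:**
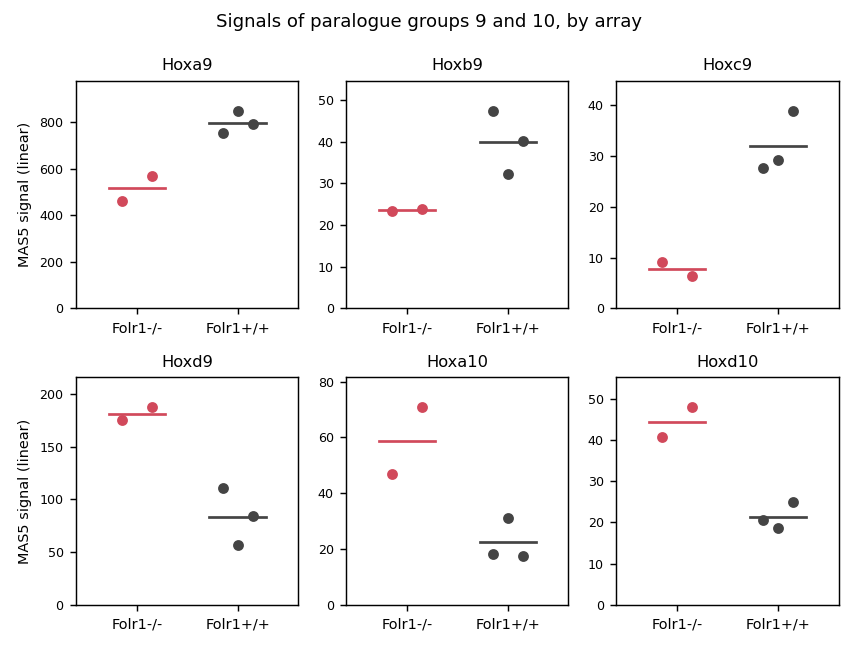
MAS5 signal on a linear scale (vertical axes, each from 0) of paralogue groups 9 and 10 in 2 Folr1-/- arrays (left, red) and 3 Folr1+/+ arrays (right, grey), with lines at the group means. Hoxa9, Hoxb9 and Hoxc9 are lower and Hoxd9, Hoxa10 and Hoxd10 higher in the Folr1-/- arrays, with no overlap in any of the 6, of which Hoxa9, Hoxd9 and Hoxa10 passed the threshold and Hoxc9 and Hoxd10 were too dim to test.

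The neighbours Hoxa9 and Hoxa10 changed in opposite directions, though Hoxa10 entered the test only through its Folr1-/- signals. Within Hoxa, 2 of 5 tested genes fell and 1 rose, with a median of -0.49 that takes the sign of its middle gene, Hoxa5, and was 0.09 with a pseudocount of 1, where Hoxa5 was not tested. Leaving out Folr1+/+ replicate 2 gave 0.08 and leaving out Folr1+/+ replicate 3 gave 0.02, with 4 Hoxa genes tested in each of these fits. In Hoxb, 2 of 7 fell and none rose by limma, though Hoxb6 had an unadjusted p under 0.05 (median -0.35). All 3 tested Hoxc genes had negative values and 1 of them fell (median -0.31). All 3 tested Hoxd genes had positive values and 2 of them rose (median 0.75). Including dim genes, 6 of 6 Hoxc genes had a negative value and 5 of 7 Hoxd genes a positive one, and among all 12393 genes 7104 had a negative value. Of all genes tested, 6.79% were lower and 8.19% higher past the threshold. Whether clusters differ was not tested.

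By paralogue range, 4 of the 7 tested genes of groups 1 to 4 fell and 1 rose (median -0.69). Of the 5 tested genes of groups 9 to 13, 1 fell and 2 rose (median 0.64). The shares of all genes tested were 6.79% lower and 8.19% higher. The median of groups 1 to 4 is the value of Hoxb3, which entered the test only through its Folr1+/+ signals. In groups 9 to 13, Hoxb9 entered only through its Folr1+/+ signals and Hoxa10 only through its Folr1-/- signals. The size of these medians moved with the settings. They were -0.34 and 0.38 with a pseudocount of 64, and -0.27 over 4 genes and 0.20 over 2 when genes under the 60th percentile were left out. The anterior median was -1.05 with a pseudocount of 1 and -0.41 with the mean of a gene's several probe sets. With the dim genes included they were -0.59 over 9 genes and -0.07 over 13, of which 8 are dim. Without Folr1-/- replicate 2 the median of the 4 posterior genes then tested was 0.10. Fold change and paralogue number had a Spearman's rho of 0.35 over the 18 tested genes and of 0.38 over all 31 (Pearson's r of 0.39 and 0.32). These are correlations across genes that share the same 5 arrays, given as descriptions.

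The 13 dim genes hold all 4 members of group 13, which act at the end of the limb and of the body axis. Their signals were at most 9.22 in Folr1-/- arrays and at most 15.5 in Folr1+/+ arrays. The groups did not overlap in 5 of the 13 dim genes, against 30.3% of all genes too dim to test: Hoxa2, Hoxa4 and Hoxc9 were lower, and Hoxa7 and Hoxd10 higher. Hoxa7, a gene of the thoracic trunk, had signals of 30.2 and 14.0 in Folr1-/- arrays and of 6.79, 3.13 and 6.16 in Folr1+/+ arrays. Hoxb7 had 19.9 and 19.4 against 19.1, 19.4 and 23.5, and a probe set that the annotation gives to both Hoxb8 and Hoxb7 had 38.0 and 30.3 against 33.6, 29.9 and 61.6, with overlapping groups. A probe set shared by Hoxd4 and Hoxd3 had 4.99 and 13.2 against 16.3, 27.0 and 27.9, lower without overlap, and the other shared one had 3.33 and 12.5 against 10.4, 2.06 and 11.2. Detection calls were not used here, so such signals could not be told from background.

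Among proteins that bind DNA with Hox proteins, 2 of 5 tested cofactor genes fell and 0 rose. At an unadjusted limma p under 0.05, 3 were lower and 0 higher, beside 1116 and 1114 of all 7436 genes tested. Of all genes tested, 6.79% were lower and 8.19% higher past the threshold. Pbx3 had signals of 101 and 121 in Folr1-/- arrays, against 177, 213 and 196 in Folr1+/+ arrays (-0.73 ± 0.17, adjusted p = 0.014). The signals of Meis2 were 287 and 245 against 395, 372 and 408 (-0.53 ± 0.15, adjusted p = 0.037), without overlap, but it passed in only 6 of 15 alternatives. Meis1, a close relative, had 262 and 286 against 393, 415 and 345 and an adjusted p of 0.068.

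Regulators of the clusters went both ways, with 2 of 9 tested genes lower, 2 higher and 5 short of the threshold. The shares of all genes tested were 6.79% lower and 8.19% higher. Aldh1a2, which makes retinoic acid in the trunk mesoderm, had signals of 156 and 183 in Folr1-/- arrays and of 360, 361 and 296 in Folr1+/+ arrays (-0.94 ± 0.17, adjusted p = 0.0030). Cyp26a1, which breaks retinoic acid down in the tail bud, rose, with 220 and 246 against 151, 124 and 147 (0.67 ± 0.17, adjusted p = 0.020). Egr2, which acts on Hox genes in hindbrain segments, had 29.5 and 39.5 against 115, 87.9 and 73.5 (-1.09 ± 0.21, adjusted p = 0.0058). Cdx2, the caudal gene of the tail end, rose, with 190 and 285 against 162, 92.8 and 110 (0.89 ± 0.23, adjusted p = 0.025), and the call was lost with the mean of its probe sets (0.36, adjusted p = 0.21). Cdx4 did not pass (0.12 ± 0.21), and the dim Cdx1 had 63.6 and 47.1 against 23.1, 4.31 and 7.14, higher without overlap. The calls of Pbx3, Meis2, Egr2, Aldh1a2 and Cyp26a1 were each lost without Folr1-/- replicate 1, and those of Meis2, Cdx2 and Cyp26a1 without Folr1-/- replicate 2. Without Folr1+/+ replicate 3 the calls of Pbx3, Meis2, Cdx2 and Cyp26a1 were lost, that of Meis2 also without Folr1+/+ replicate 1 and that of Cdx2 also without Folr1+/+ replicate 2. The tail bud markers, which include Cdx2 and Cyp26a1, rose in 3 of 7 tested members, with 0 lower, beside the same shares of all genes.

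**Figure D4:**
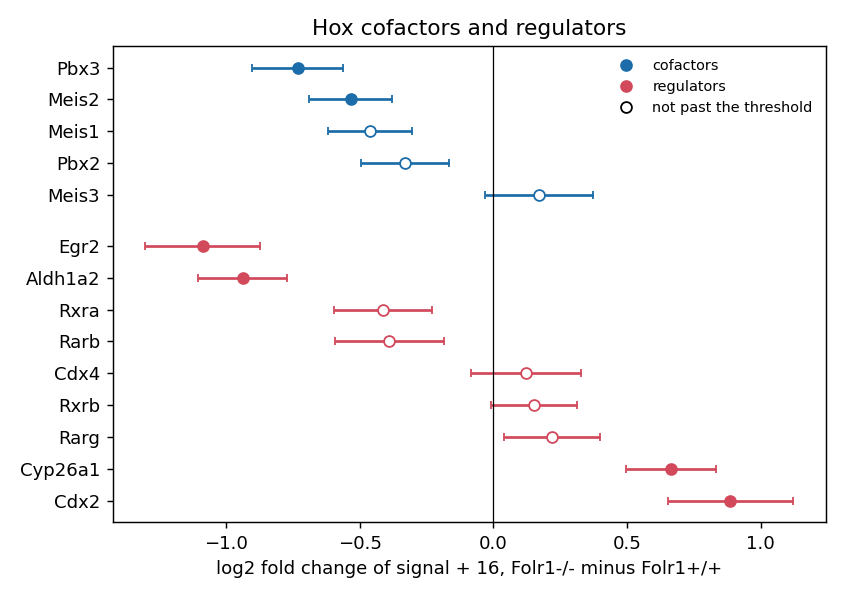
Log2 fold change, Folr1-/- minus Folr1+/+ on the log2(signal + 16) scale (horizontal axis, bars are SE), of the 5 tested cofactor genes and the 9 tested regulator genes of the Hox clusters (vertical axis). Filled points passed the threshold: Pbx3, Meis2, Egr2 and Aldh1a2 to the left of 0 and Cyp26a1 and Cdx2 to its right.

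Of the Polycomb genes, whose proteins keep Hox clusters silent, 1 of 15 tested fell and 0 rose. At an unadjusted limma p under 0.05, 3 were lower and 0 higher, beside 1116 and 1114 of all 7436 genes tested. The count that fell is near the share of all genes tested, of which 6.79% were lower and 8.19% higher. The Polycomb gene that fell was Ezh2, the histone methyltransferase, with signals of 1073 and 1170 in Folr1-/- arrays, against 1870, 1573 and 1677 in Folr1+/+ arrays (-0.60 ± 0.14, adjusted p = 0.016). The trithorax genes, whose proteins keep Hox genes active, gave 0 calls among 6 tested by limma, and 1 of them, Ash2l, had an unadjusted p under 0.05 (0.34 ± 0.15). At that level 1114 of all 7436 genes tested were higher. Of the other homeobox genes related to the Hox family, 1 of 2 tested fell, the somite gene Meox1, with 29.3 and 69.8 against 114, 257 and 200 (-1.66 ± 0.32, adjusted p = 0.0045). Evx1, which flanks the 5' end of Hoxa, had 73.4 and 96.0 against 78.5, 22.5 and 51.1 and did not pass (adjusted p = 0.17). Among the 5 nearest protein-coding genes on each side of each cluster, 23 were tested, of which 1 fell and 1 rose. The shares of all genes tested were again 6.79% and 8.19%. Cbx1, near Hoxb, had a fold change of -0.70 ± 0.15 (adjusted p = 0.0087), which the mean of its probe sets reduced to -0.47 (adjusted p = 0.058), and Nfe2l2, near Hoxd, of 0.60 ± 0.16 (adjusted p = 0.025). The median of these neighbours was 0.03. The calls of Ezh2, Meox1, Cbx1 and Nfe2l2 were lost without Folr1-/- replicate 1, those of Cbx1 and Nfe2l2 also without Folr1-/- replicate 2, those of Ezh2 and Nfe2l2 also without Folr1+/+ replicate 3, and that of Nfe2l2 also without Folr1+/+ replicate 1.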

How the data were processed

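RNA of whole embryos was measured on 5 one-colour arrays, 2 Folr1-/- and 3 Folr1+/+. The authors deposited 1 MAS5 signal intensity for each probe set, unlogged, per the submitters' processing notes (no version is given in the sources used here); the trimmed mean was 150 on every array, and that scaling was kept. Of 22690 probe sets, 20380 had 1 gene symbol in the platform annotation, and each of 12393 genes was represented by its brightest probe set over all arrays. Genes under the 40th percentile were left out, which left 7436. On the log2(signal + 16) scale the groups were compared with lmFit and eBayes (intensity trend, 3 residual degrees of freedom) of limma 3.58.1, run in R 4.3.3, with Benjamini-Hochberg adjustment over these genes; fold changes on this scale understate those of dim genes. The code was tested on simulated data. The members and lists were chosen with earlier results of these data known. All Hox genes could be named; from each other list up to 4 genes past the threshold were named by the size of their fold, or, with none, the 3 of lowest unadjusted p at most; Meis1, Cdx1, Cdx4, Evx1 and the sex-linked genes were added after their values were seen. Upstream sequences come from RefSeq on GRCm38.p6, and the gene table of that assembly served for names and gene order only. The number of arrays limits the precision.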

Additional observations from a re-analysis of the deposited data

How the results depend on the processing

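Among 15 alternatives, the count of Hox genes that fell (5) became 2 with the filter at the 60th percentile (9 Hox genes tested), 2 with probe sets averaged per gene and 3 with the replicate block. The count that rose (3) became 1 with no filter on dim genes, 5 with probe sets averaged per gene and 5 with array weights. The 5 with averaged probe sets include Hoxd10, which entered that test only because the filter moved. Leaving out 1 array at a time gave 1 to 4 lower and 0 to 4 higher Hox genes, and 367 to 1023 of all 7436 genes past the threshold in place of 1114. The lowest of each of these counts arose in a fit with 1 Folr1-/- array, and leaving out Folr1+/+ replicate 3 gave 639 of all genes. Fewer arrays leave fewer degrees of freedom. The deviations of arrays with the same replicate number from their group means had correlations of 0.02 and -0.06. The deviations of the 2 Folr1-/- arrays mirror each other, so these values cannot show whether a number marks a litter or batch. With the replicate block 899 of all genes passed, and Hoxb3 and Hoxb4 lost their calls. Only Folr1+/+ has a replicate 3, so the block fit gave the same fold changes as leaving that array out. Hoxa10 had 0.87 and Hoxc4 -1.705 in both, so these settings are not independent. Centring each array on its median moved the median of all genes from -0.02 to 0.07, lost the call of Hoxb3 and added that of Hoxa11. No direction of a tested Hox gene turned. Arrays have no read depth, and signals near 16 or below are set largely by the pseudocount.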
